A study of Mus musculus with 8 samples.

Results

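The Hox gene clusters were examined in peak lists of H3K27ac (acetylation of histone H3 on lysine 27), which marks active promoters and enhancers, from 4 mouse breast tumors. Members were all protein-coding genes of the GENCODE M21 annotation (mm10) named Hoxa, Hoxb, Hoxc or Hoxd followed by a number. This rule, which used no measured value, gave 39 of 21938 protein-coding genes: 11 in HoxA, 10 in HoxB, 9 in HoxC and 9 in HoxD. All 4 tumors came from Balb/c mice carrying the PyMT (polyoma middle T) oncogene, driven by the mammary MMTV promoter, in which Rag1, needed to make T and B cells, was knocked out. Each mouse had been given CD4+ T cells from wild-type donors when 4 weeks old, and its tumor was taken at terminal size. The 2 control tumors had this genotype alone (PyMT;Rag1KO). In the 2 test tumors a transgene added the cytokine TSLP (thymic stromal lymphopoietin), expressed from the keratin 14 promoter of skin keratinocytes and other basal epithelium (K14-TSLPtg;PyMT;Rag1KO). Control samples are titled tumor and test samples cyst, and each came from a separate mouse. Below, 4 values in a row are those of control 1, control 2, test 1 and test 2 in that order. The animals' age at collection was not used here.

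Hox genes encode homeodomain transcription factors that give cells their position along the body axis. Their order along each cluster follows their order of use: low numbers (groups 1 to 3, called anterior here) act towards the head, high numbers (groups 9 to 13, posterior) towards the tail and limb ends, and genes with the same number in different clusters are paralogs. Adult cells keep part of this pattern. Silent Hox genes lie in chromatin held by Polycomb complexes, and active stretches are opened by the MLL (trithorax) complexes and carry H3K27ac over long domains. In the mammary gland Hox genes act in both the epithelium and the stroma.

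Each list holds the positions of peak intervals and no signal. The lists had 59762 to 69861 intervals covering 2.36% to 2.68% of the genome, and read depth is unknown from them. The 2 measures were therefore the presence of an interval and the percent of bases inside intervals. A promoter had a peak when an interval touched the 1 kb either side of the transcription start site (TSS), taken as the gene's annotated 5′ end. Of 10 luminal markers, 8 had a promoter peak in all 4 tumors, among them Krt8, Krt18, Epcam, Gata3 and Esr1. Elf5 had one in control 1 and test 1, and Foxa1 had none. With 2 tumors against 2, a two-sided exact permutation test cannot go below p = 0.333, so no difference between the groups could pass 0.05 in this test, and differences are read against the spread between tumors.

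Acetylated Hox promoters were anterior or central genes, and no posterior promoter had a peak. Of 39 Hox promoters, 13 had a peak in at least 1 tumor and 26 (66.7%) had none, against 42.8% without a peak among all protein-coding genes. With intervals at least 1 kb wide, 6 had a peak and 33 had none. All 16 posterior promoters lacked a peak in all 4 tumors. Of the 8 anterior promoters, 6 had a peak in some tumor, as did 7 of the 15 central ones (groups 4 to 8). These classes follow the gene number and not the position of the annotated start. Hoxd3 and Hoxd4 start 2 bp apart, so the same peak counts in both classes. The annotated Hoxa3 start lies between those of Hoxa6 and Hoxa7. Hoxc5 and Hoxc10, both without a peak, start 647 bp apart, so their windows overlap. By tumor, 3, 6, 3 and 1 anterior promoters and 4, 6, 6 and 0 central ones had a peak. By paralog number, 1 of 3 genes had a peak in some tumor in group 1, each gene did in groups 2, 3 and 7, and 3 of 4 did in group 4 and 2 of 3 in group 5, while groups 6 and 8 had 0 of 3 genes each. A peak in every tumor was found at 1 of 39 members (2.56%), against 49.6% of all promoters.

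**Figure D1:**
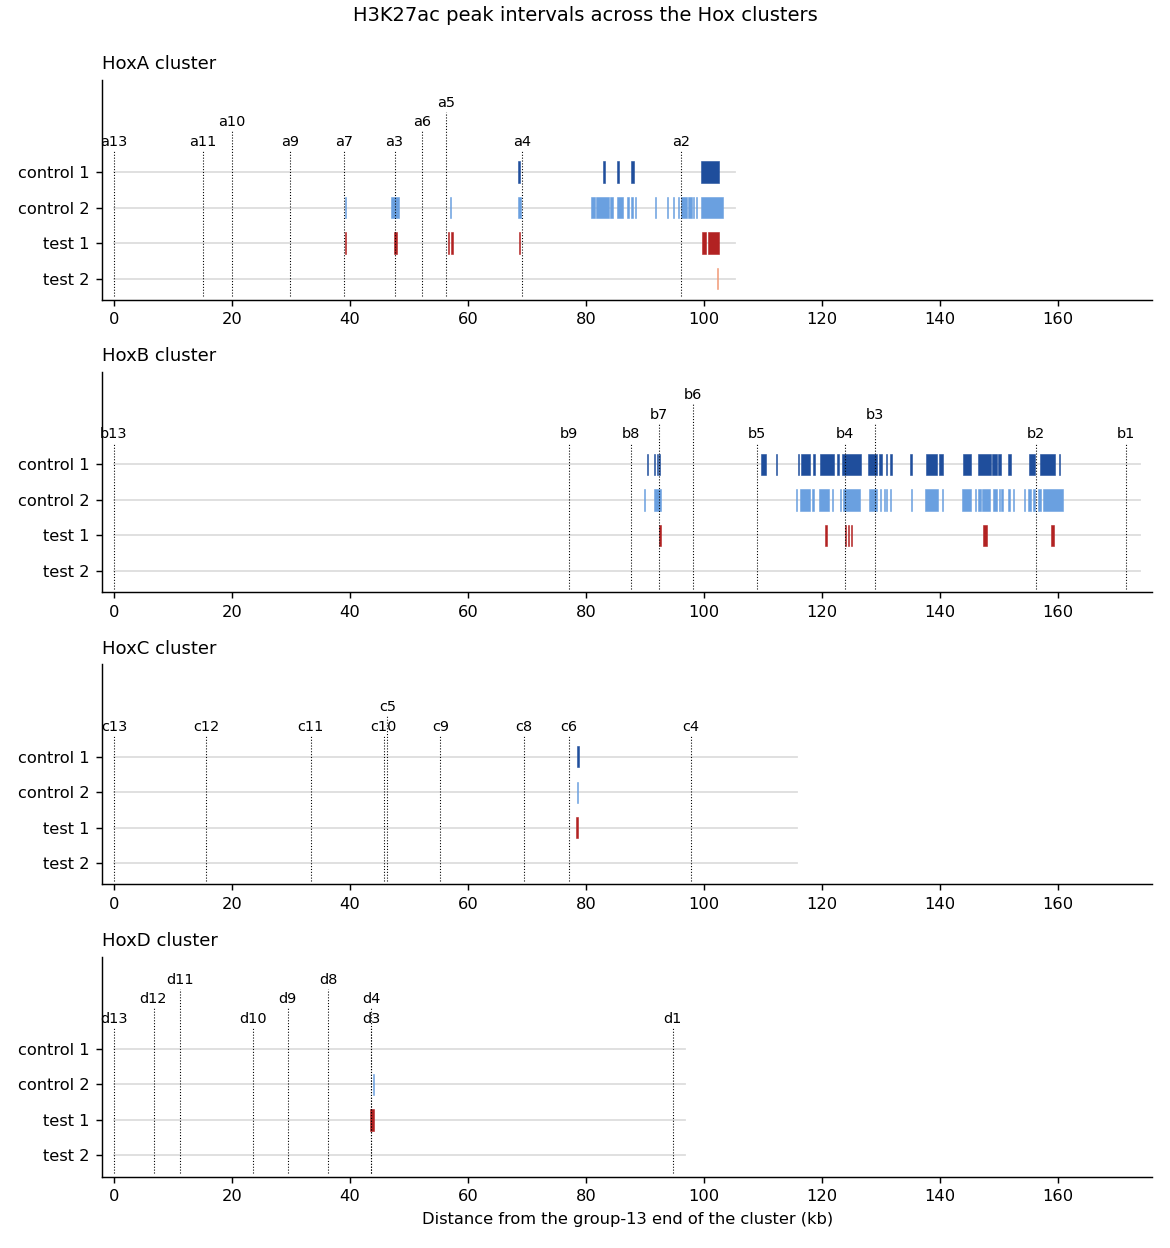
H3K27ac peak intervals (coloured blocks) of each tumor across the 4 clusters, by distance in kb from the end that holds the group-13 gene; dotted lines mark the TSS of the labelled Hox genes. Blocks crowd over the Hoxb5 to Hoxb2 stretch in both control tumors, where test 1 has a few and test 2 none, and no block lies over a posterior gene.

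The tumors differed strongly in how many Hox promoters were acetylated. The number with a peak was 7, 12, 9 and 1. The means were 9.50 ± 3.54 in control and 5.00 ± 5.66 in test tumors (SD, n = 2 each; exact permutation test, two-sided, p = 0.667). The groups overlapped, since test 1 lay between the control tumors. By cluster the counts were 2, 6, 5 and 1 of 11 in HoxA, 5, 4, 2 and 0 of 10 in HoxB, 0 of 9 in HoxC in every tumor, and 0, 2, 2 and 0 of 9 in HoxD, so that HoxB was where the groups did not overlap. Over all protein-coding genes the same count was nearly level, with 11747, 11834, 11878 and 11399 promoters. Test 2, with 2.56% of members and 52.0% of all promoters, stood apart in its Hox count, and without it the difference of group means was -0.50 in place of -4.50.

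HoxB was the cluster in which both control tumors stood furthest above both test tumors. The cluster spans 173.9 kb (chr11:96194316-96368256, plus strand). Intervals covered 13.98%, 13.4%, 1.33% and 0% of it, or 24.3, 23.2, 2.31 and 0 kb. The control mean was 13.7% ± 0.446 and the test mean 0.665% ± 0.941 (SD, n = 2 each), a difference of -13.001 percentage points that was far larger than the spread within either group (exact permutation test, two-sided, p = 0.333, the smallest this test can give here; BH-adjusted p = 0.667 over the 4 clusters). The difference was -12.3 without test 2 and -12.5 when each list was cut to the same number of its widest intervals. Against test 1 alone, coverage was 10.5 times as high in control 1 and 10.04 times as high in control 2. For the whole genome the same ratios were 1.00 and 0.930. Over all 4 clusters (491.8 kb) coverage was 5.88%, 7.60%, 1.504% and 0.0327%, with means of 6.74% ± 1.22 and 0.769% ± 1.04 (SD, n = 2 each; exact permutation test, two-sided, p = 0.333). Since these are whole tumors, fewer cells that carry the mark and less of it per cell cannot be told apart.

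The acetylated part of HoxB was a broken domain rather than a set of separate promoters. Control 1 had 27 intervals and control 2 had 31, reaching over 70.1 kb and 70.95 kb from inside Hoxb8 to just past Hoxb2. The 2 control tumors shared 18537 acetylated bases, 76.2% of those in control 1 and 79.8% of those in control 2. Test 1 had 7 intervals, 0 of them at least 1 kb wide against 9 in each control tumor. Of its 2314 acetylated bases, 96.9% also lay in intervals of control 1 and 100% in those of control 2. Test 2 had 0 intervals anywhere in the cluster. Joining the 4 lists gave 32 regions in HoxB, of which 14 (43.8%) occurred in both control and neither test tumor, where 3.41% of all regions in the genome had this pattern. The reverse pattern had 0 regions in HoxB, beside 1.47% in the genome. A further 5 HoxB regions were in all tumors but test 2, 8 in control 2 alone and 5 in control 1 alone.

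Most acetylated HoxB bases of the control tumors lay over 1 kb from a Hox TSS, although start sites held more than their share. Of the acetylated bases, 21.6% in control 1, 23.6% in control 2 and 36.1% in test 1 were within 1 kb of a TSS, against 10.9% of the cluster. In control 1 and control 2, introns of Hox genes held 43.8% and 41.4%, coding exons 12.8% and 12.7%, untranslated exons 9.20% and 8.68%, and sequence between Hox genes the remaining 34.2% and 37.1%. Over the whole cluster these parts make up 22.0%, 4.87%, 8.20% and 64.9%. The widest region found in both control tumors and neither test tumor was chr11:96331799-96333916, which began 8473 bp after the Hoxb3 TSS, with 1894 bp acetylated in control 1 and 2118 bp in control 2. Next came chr11:96322134-96323704, over the Hoxb3 TSS itself, and chr11:96310658-96312216, whose nearest TSS was that of Hoxb4, 6051 bp away.

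**Figure D2:**
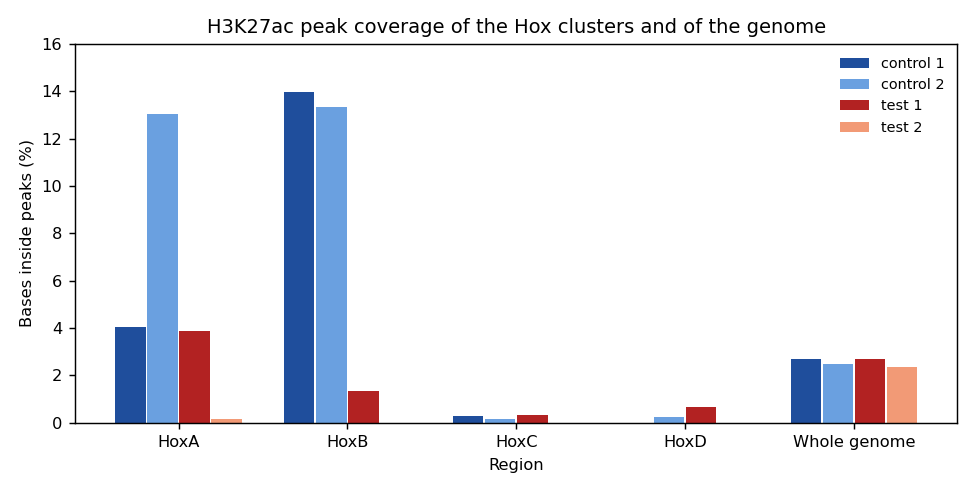
Percent of bases inside H3K27ac peaks in each Hox cluster and in the whole genome, as bars from 0, with each tumor as its own bar (control in blue, test in red and orange). In HoxB the control bars reach 13.98% and 13.4% beside 1.33% and 0%, while the genome bars lie between 2.36% and 2.68%.

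Hoxb3 and Hoxb2 were the members acetylated at the promoter in the control tumors and not in the test tumors. They are 2 of 39 members (5.13%), where 117 of 21938 protein-coding genes (0.533%) had this pattern, or 0.933% of genes with a peak in any tumor. The reverse was seen at 0 of 39 members, at 0.301% of all genes and at 0.526% of those with a peak. Hoxb3 (chr11:96323326-96347930), which acts in hindbrain patterning and in blood progenitors, had 83.4%, 77.3%, 0% and 0% of its promoter window in peaks. The interval nearest to its TSS was 3978 bp away in test 1 and 246722 bp away in test 2. Hoxb3 has 4 annotated transcript starts, and at the best covered of them test 1 had 20.5%. Hoxb2 (chr11:96350525-96354012), a hindbrain gene, had 52.1%, 60.5%, 0% and 0%, with the nearest test intervals 2681 bp and 273921 bp away. With intervals at least 1 kb wide, Hoxb2 kept 52.1% in control 1 and had 0% in control 2, so this pattern was lost, while Hoxb4 gained it at 78.4%, 69.4%, 0% and 0%.

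Hoxb4 and Hoxb7 also had a peak in test 1, over less of the window than in either control tumor. At Hoxb4 (chr11:96318267-96321638), known for its role in blood stem cells, coverage was 78.4%, 77.5%, 30.2% and 0%. An interval of 3269 bp in control 1 (chr11:96317700-96320968) and of 2865 bp in control 2 ran over its start and most of its length. In test 1 the same stretch held 3 short intervals of 173 to 280 bp. At Hoxb7 (chr11:96286623-96290162), a gene of the thoracic level, coverage was 30.2%, 59.1%, 11.6% and 0%. For both genes the control tumors lay above the test tumors. Hoxb5 had 18.8% in control 1 and 0% in the other tumors. Hoxb1, Hoxb6, Hoxb8, Hoxb9 and Hoxb13 were without a peak in every tumor.

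Sequence shows what these promoters share and where they differ. RefSeq sequences (GRCm38.p6, the build of the peak lists) were at hand for 22 of the 39 members. The 250 bases before the start site follow for Hoxb4, acetylated in 3 tumors; for Hoxa5, with a peak in its window in 2 tumors; for Hoxb8, a HoxB neighbour without a promoter peak in any tumor; and for Hoxa13, a posterior gene. They are written 5′ to 3′ along the gene's own strand, with each CpG dinucleotide in capitals, as CpG-rich DNA is where Polycomb and MLL complexes are recruited.
Hoxb4 (chr11:96318017-96318266, plus strand): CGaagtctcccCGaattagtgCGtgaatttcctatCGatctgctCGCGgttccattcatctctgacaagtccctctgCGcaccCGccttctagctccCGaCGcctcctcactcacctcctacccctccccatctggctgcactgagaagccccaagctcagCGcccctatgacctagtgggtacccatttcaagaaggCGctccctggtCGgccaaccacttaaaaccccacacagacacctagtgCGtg
Hoxa5 (chr6:52204588-52204837, minus strand): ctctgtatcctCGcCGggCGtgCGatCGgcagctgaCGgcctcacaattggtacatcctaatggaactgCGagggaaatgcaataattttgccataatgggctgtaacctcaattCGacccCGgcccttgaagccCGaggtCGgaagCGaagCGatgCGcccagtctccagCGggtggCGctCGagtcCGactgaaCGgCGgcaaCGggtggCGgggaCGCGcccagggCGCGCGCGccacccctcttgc
Hoxb8 (chr11:96281655-96281904, plus strand): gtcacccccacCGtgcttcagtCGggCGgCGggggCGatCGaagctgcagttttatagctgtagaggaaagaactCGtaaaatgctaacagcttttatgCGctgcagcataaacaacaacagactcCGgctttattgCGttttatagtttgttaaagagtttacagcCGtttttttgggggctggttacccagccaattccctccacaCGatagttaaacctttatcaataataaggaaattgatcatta
Hoxa13 (chr6:52260881-52261130, minus strand): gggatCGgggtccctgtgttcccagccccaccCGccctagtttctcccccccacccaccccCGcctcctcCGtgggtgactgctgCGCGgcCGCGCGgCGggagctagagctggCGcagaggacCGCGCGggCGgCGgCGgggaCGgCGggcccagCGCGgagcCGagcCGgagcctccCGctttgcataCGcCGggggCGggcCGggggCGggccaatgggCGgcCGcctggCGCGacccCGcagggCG

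These stretches hold 14 CpGs at Hoxb4, 28 at Hoxa5, 12 at Hoxb8 and 35 at Hoxa13. The 300-base window of Hoxb4, which adds 50 bases after the start, lay in peaks for all 300 bases in both control tumors, for 174 bases in test 1 and for 0 in test 2. The same windows of Hoxa5, Hoxb8 and Hoxa13 held 0 such bases in every tumor. Over the 17 members whose RefSeq start lay within 250 bp of the start used here, the median observed over expected CpG was 0.756 in the 4 with a peak (range 0.589 to 1.02) and 0.754 in the 13 without (0.257 to 0.970), beside 0.384 for 32851 promoters in all. The ranges overlapped, and the 4 do not include Hoxb2 or Hoxb3. Motifs were searched on both strands of these 300-base windows. GGGCGG, the core of an Sp1 site, was in 0 of the 4 and 7 of the 13, beside 35.7% of all promoters. TGATNNAT, the core shared by Hox and Pbx sites, was in 1 of the 4 and 2 of the 13, beside 8.85%. CCAAT was in 3 of the 4 and 9 of the 13, beside 37.4%. TATAAA was in 0 of 4 and 2 of 13 (13.6% of all), TGANTCA in 0 of 4 and 1 of 13 (7.81%), and TTCNNNGAA and AGATAA were in 0 of both sets (8.30% and 11.2%). Matches of different motifs were counted separately and can share bases.

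HoxA was acetylated in every tumor but unevenly, and control 2 set the control level. The cluster (chr6:52155590-52260880, minus strand) was covered over 4.04%, 13.1%, 3.87% and 0.153% of its 105.3 kb. The control mean was 8.55% ± 6.37 and the test mean 2.01% ± 2.63 (SD, n = 2 each; exact permutation test, two-sided, p = 0.333; BH-adjusted p = 0.667). Control 1 and test 1 were nearly level. Without control 2 the difference of group means was -2.03 points in place of -6.54. Control 2 had 20 intervals against 5, 7 and 1 in control 1, test 1 and test 2, and 13 of the 22 joined HoxA regions were in control 2 alone.

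At single HoxA promoters the groups separated little or overlapped. Hoxa4, which acts in the neck region of the axis, had 16.4%, 25.9%, 16.3% and 0%, with control 1 and test 1 almost equal. Hoxa2, a gene of the face and hindbrain, had 56.2% in control 2 and 0% elsewhere.

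A further set of promoters had peaks in control 2 and test 1 but not in control 1 or test 2. These were Hoxa3, Hoxa5, Hoxa7, Hoxd3 and Hoxd4, 5 of 39 members (12.8%), where 0.465% of all promoters had that pattern. Hoxa3, which is needed for the thymus and parathyroid, had 65.1% in control 2 and 23.8% in test 1. Hoxa5, a regulator of lung and mammary epithelium, had 7.90% and 20.9%, and Hoxa7 had 9.25% and 9.90%. Hoxd3 and Hoxd4 start 2 bp apart and so share a window, which had 11.5% in control 2 and 32.3% in test 1. For these 5 genes the groups overlapped. The annotated 5′ end of Hoxa3 lies beyond its neighbours, between Hoxa6 and Hoxa7, and that of Hoxd3 lies at the Hoxd4 start. Inside the annotated Hoxa3 gene (chr6:52169062-52213336), 3 regions were acetylated in both control and neither test tumor, at chr6:52172816-52173255, chr6:52174561-52175678 and chr6:52177035-52179170. Control 1 had 392, 301 and 236 bp in them and control 2 had 364, 1118 and 2136 bp. Hoxa6, Hoxa9, Hoxa10, Hoxa11 and Hoxa13 had no peak in any tumor.

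**Figure D3:**
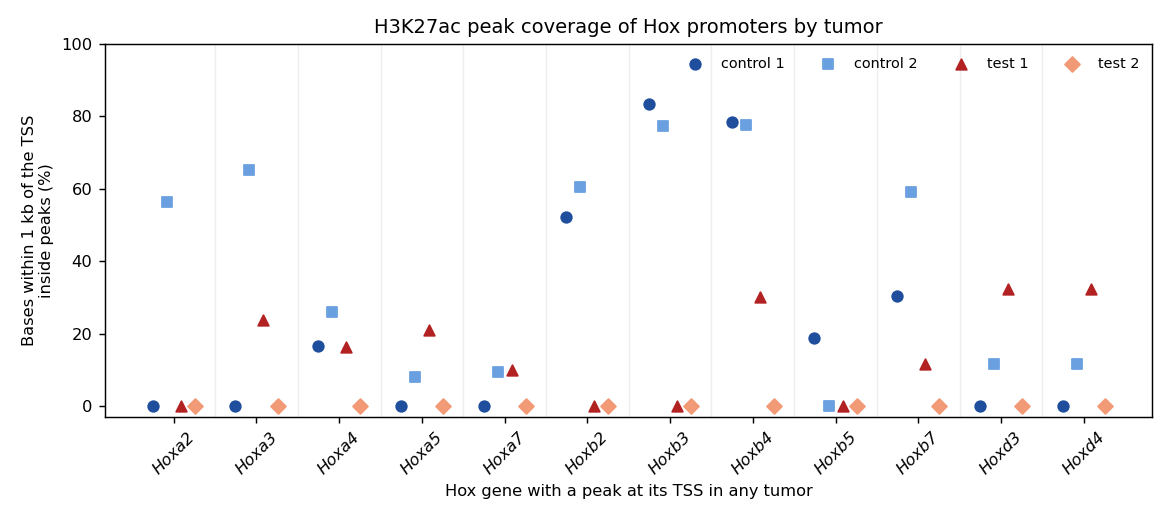
Percent of bases within 1 kb of the TSS inside peaks, for 12 of the 13 Hox genes with a peak in any tumor, with 1 point per tumor (control 1 circle, control 2 square, test 1 triangle, test 2 diamond). At Hoxb2 and Hoxb3 both control points lie at 52.1% or above and both test points at 0. Test 2 is at 0 for all genes drawn, and the gene left out is the one with a promoter peak in test 2.

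Counting members by order, 6 of the 13 Hox genes with a peak had both control tumors above both test tumors (among them Hoxb2, Hoxb3, Hoxb4 and Hoxb7) and 0 had the reverse. Among all 12546 genes with a promoter peak in any tumor the lean was the other way, with 9.6% higher in both control tumors and 20.9% higher in both test tumors. With any 1 tumor left out the Hox count was 6 to 8, and without test 2 the reverse order had 4 members. Mean promoter window coverage over all 39 members was 8.36%, 14.04%, 5.72% and 0.206%, while over all protein-coding genes it was 33.4%, 34.4%, 35.95% and 33.4%. The median over members was 0% in each tumor.

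HoxC and HoxD were almost bare. In HoxC (chr15:102921103-103036852) the promoters of all 9 genes lacked a peak in every tumor. The cluster's sole region lay in an intron of the annotated Hoxc5 and Hoxc6 genes, with 337, 178, 367 and 0 bp (chr15:102999528-102999864 in control 1). It touched the window of another annotated start of Hoxc6, where coverage was 16.8%, 8.90%, 11.5% and 0%. In HoxD (chr2:74668310-74765142) the sole region lay at the Hoxd3 and Hoxd4 start, with 231 bp in control 2 and 646 bp in test 1, and the other 7 HoxD genes had no promoter peak in any tumor. For both clusters the groups overlapped (exact permutation test, two-sided, p = 1).

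Annotated noncoding genes inside the clusters had peaks near their starts in HoxA and HoxB and not in HoxC or HoxD. Of 43 noncoding genes inside the 4 clusters, 31 had no peak within 1 kb of their start in any tumor, including all 16 in HoxC and HoxD, among them Hotair, a well-studied RNA of HoxC. In HoxB, Gm11536 had 88.8%, 68.7%, 36.7% and 0%. Hoxb3os, antisense to Hoxb3 and Hoxb2, had 24.0%, 72.0%, 0% and 0%. In HoxA, Hoxaas3 (15.0%, 55.9%, 0% and 0%) and Gm15050 also had peaks in the control tumors alone. Both start within regions already listed inside Hoxa3, so these are the same intervals and not separate observations. H3K27ac has no strand, so where such a start lies in or beside a Hox gene the mark cannot be assigned to either.

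The miR-10 genes of HoxB and HoxD encode near-identical mature RNAs, and the Mir10a window overlaps that of Hoxb4. Mir10a lies upstream of Hoxb4, and Mir10b lies inside the annotated Hoxd3 and Hoxd4 genes. Their mature 5′ arms share the seed, bases 2 to 8, printed here in capitals, and differ by U12A (the miR-10a base first, position from the 5′ end).
mmu-miR-10a-5p (chr11:96317186-96317208): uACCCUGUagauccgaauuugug
mmu-miR-10b-5p (chr2:74726074-74726096): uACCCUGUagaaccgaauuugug
The kilobase either side of the Mir10a hairpin start was covered by 48.8%, 26.3%, 1.15% and 0%. The test 1 value is the edge of its interval over the Hoxb4 start (chr11:96318143-96318422). The control values come in part from the intervals over the Hoxb4 start, so these values partly repeat those of Hoxb4. Mir10b, Mir196a-1, Mir196a-2, Mir196b and Mir615 had 0% in all 4 tumors. The hairpin start is not the start of the primary transcript, which these lists do not give.

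Beyond the clusters the differences were small in percentage points, though in several flanks the groups did not overlap. In the 200 kb past the group-13 end of HoxB, coverage was 4.06%, 3.94%, 5.06% and 3.649%, so the groups overlapped. Past its group-1 end, which was nearly bare, it was 0.194%, 0.313%, 0% and 0%, with both control tumors above both test tumors. On the group-1 side of HoxA it was 4.22%, 5.05%, 3.804% and 3.05%, again with both control tumors higher. On its group-13 side it was 0% in all but test 1. The flanks of HoxC and HoxD differed between the groups by at most 0.122 points over 200 kb. Past the group-13 end of HoxD the difference was 0.323 in a flank of 100 kb. Both test tumors were higher past the group-13 end of HoxC and the group-1 end of HoxD, and both control tumors past the group-1 end of HoxC. None of the 8 flanks could pass (BH-adjusted p of 0.533 or 1, exact permutation test). Of the 16 nearest protein-coding neighbours, Evx1, Evx2, Ttll6, Calcoco2, Skap1 and Smug1 had no promoter peak in any tumor, and Hibadh, Skap2, Snx10, Snx11, Calcoco1, Atp5g2, Cbx5, Lnpk, Mtx2 and Hnrnpa3 had one in every tumor. Inside HoxA the gene 5730596B20Rik, which starts within a region already listed inside Hoxa3, had 11.8%, 86.2%, 0% and 0%. Gm28308, which shares the Hoxa3 window, had the Hoxa3 values.

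Genes that work with or on Hox genes, or are related to them, were counted in 6 lists, beside the 49.6% of all promoters with a peak in every tumor. Among 9 TALE homeodomain cofactors, which bind DNA together with Hox proteins, 5 (Meis1 among them) had a peak in every tumor, a share near that of all genes, and Pbx4 alone had none. Polycomb PRC2 genes, which place the silencing mark H3K27me3, had a peak in every tumor for 10 of 11, and the exception was Phf19. PRC1 genes, which compact that chromatin, had one for 16 of 19, with Cbx7 the one gene without any. In 9 of the 18 PRC1 genes with a peak both test tumors were above both control tumors and in 1 the reverse held, beside 20.9% and 9.6% of all genes with a peak. These orders had 3 and 2 of 11 PRC2 genes, 2 and 0 of 13 genes of the MLL/COMPASS list, 1 and 0 of 8 TALE genes and 3 and 0 of 9 genes of other homeobox groups. The MLL/COMPASS list also held Crebbp, Ep300, Dot1l and Kdm6b, chromatin enzymes that are not subunits of these complexes. Of its 15 genes, 13 had a peak in every tumor, and Ash2l and Dpy30 had none. Cdx and ParaHox genes, upstream regulators and relatives of the clusters, had 0 of 6 with a peak in any tumor. Among 21 genes of other homeobox groups, 6 were acetylated in every tumor (Irx3 and Irx5 among them) and 12 in none. Dlx4 had a peak in neither control tumor and in both test tumors, at 10.1% and 9.75%, a pattern of 0.301% of all genes. In these 6 lists 0 genes had peaks in the control tumors alone, beside 0.533% of all genes, from which nothing can be read for lists of this size. Genes with a peak in every tumor, and Phf19, were named here after their values were seen.

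Promoter coverage of the stromal, immune and myoepithelial marker lists was also lowest in test 2. Mean promoter coverage of the 10 fibroblast markers was 12.5%, 7.78%, 6.92% and 0%, with 4, 3, 3 and 0 genes having a peak. For the 8 endothelial markers it was 14.3%, 4.49%, 6.85% and 0% (4, 3, 3 and 0 genes), and for the 8 T cell markers 2.69%, 1.41%, 1.56% and 0% (2, 1, 1 and 0 genes). The T cell values rest on Lck and Il7r alone and so do not rank the tumors by T cell number. By staining, in mice with Rag1 intact, the authors saw far more CD4+ T cells in tumors with the TSLP transgene than in controls. The 8 myeloid markers had 28.3%, 27.6%, 25.9% and 14.2% (5, 4, 4 and 3 genes), and the 8 myoepithelial markers 15.9%, 1.52%, 12.1% and 0% (5, 1, 3 and 0 genes). Luminal marker means overlapped between the groups, at 63.3%, 51.4%, 56.7% and 56.4%, with control 2 lowest. Dcn (1 of 10 fibroblast markers), Pecam1 (1 of 8 endothelial) and Itgam (1 of 8 myeloid) had peaks in the control tumors alone, beside 0.533% of all genes. Several defining markers had no promoter peak in any tumor: Col1a2, Lum, Fap and Thy1 of fibroblasts, Kdr, Tek, Tie1 and Vwf of endothelium, Csf1r, Adgre1 and Cx3cr1 of myeloid cells, Myh11, Trp63 and Mylk of myoepithelium, all but Lck and Il7r of the T cell list, and the 6 adipocyte markers. Fibroblast and endothelial means were higher in control 1 than in the other tumors, and 1 of 6 fibroblast, 2 of 4 endothelial and 3 of 5 myeloid markers with a peak had both control tumors above both test tumors, beside 9.6% of all genes with a peak. The T cell, myoepithelial and luminal lists had 0 such genes. The reverse order was seen at 2 of 9 luminal markers, Cdh1 and Gata3, beside 20.9%, and at 0 in the other marker lists. Between control 2 and test 1 single markers went both ways, with Dcn at 41.2% and 0% and Postn at 0% and 48.7%. The marker values thus moved in part with the Hox values, and the part of cell make-up in the Hox results was not tested.

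**Figure D4:**
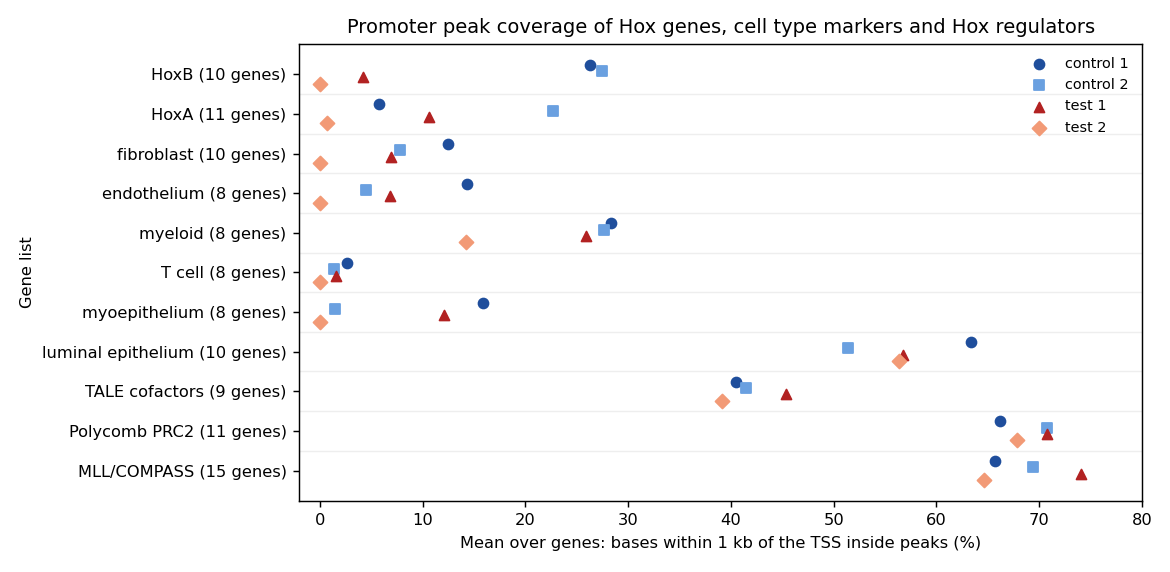
Mean promoter peak coverage (percent of bases within 1 kb of the TSS) over the genes of each list, with 1 point per tumor. For HoxB both control points (26.3% and 27.4%) lie far right of both test points (4.18% and 0%). In the fibroblast and endothelial rows control 1 lies highest, and in these and the myeloid row test 2 lies lowest.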

How the data were processed

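ChIP-seq of H3K27ac had been done on 4 tumors, 2 per group, from separate mice. The authors aligned reads to mm10 with BWA, called peaks with MACS2 per tumor against its input at a q value of 0.01, and deposited intervals that, per the file names, were cleaned and merged. The smallest gap was 201 bp in each list, and how intervals were cleaned is not given in the sources used here. The unit is a position in bp; the lists the authors deposited hold no signal, score or depth, and reads were not analysed here, so no counting error is given. Input libraries were not analysed here. Groups came from the genotype label, and tumor numbers only name a tumor.

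Intervals were set against GENCODE M21 (GRCm38, the mm10 assembly; 0 intervals passed a chromosome end) with Python 3.11.15 and NumPy 2.4.6, counting an overlap of at least 1 bp. A cluster ran from the outer end of its first to that of its last Hox gene. Group values were compared by the exact permutation test (two-sided) over 6 assignments with Benjamini-Hochberg (BH) adjustment; calls on genes were counted without a test. Functions were tested on simulated lists. Alternatives changed the number, width and joining of intervals, the promoter window and starts, the cluster and flank limits, and the tumors used. Values per tumor are printed for members with a peak in one group only, the 3 largest non-overlapping differences of each cluster and the 5 highest means; other members are named with their tumors. The members, lists and rules were chosen with earlier results of these data known. Values of some genes that meet these rules are not reported here.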

Additional observations from a re-analysis of the deposited data

How the results depend on the processing

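No paired analysis was possible because the tumor numbers only name tumors. The lower HoxB coverage in test tumors kept its direction under all alternatives: it was -9.93 points with intervals at least 1 kb wide, -17.8 with intervals within 1 kb joined, -11.7 with clusters extended by 10 kb, and -13.7 to -12.3 with any tumor left out. For the 4 clusters together these were -4.48 and -8.19 for the first 2, and -6.83 to -5.11 with a tumor left out. The 0 of 16 posterior promoters held under all alternatives. Promoters with a peak in both control and no test tumor numbered 1 in place of 2 with all annotated transcript starts, and 2 to 5 with a tumor left out, 5 without test 1; with intervals at least 1 kb wide they were still 2, but Hoxb4 in place of Hoxb2. HoxC promoters with a peak numbered 1 with all transcript starts or a window of 2.5 kb. Members with both control tumors higher numbered 3 with intervals at least 1 kb wide, and members with both test tumors higher 0 to 4 with a tumor left out. The difference in promoter number ranged from -8.50 to -0.50 with a tumor left out, the latter without test 2, and HoxA coverage from -11.05 to -2.03.

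Small differences were unstable. HoxC coverage was 0.0130 with the same number of intervals in each tumor and -0.222 to 0.0946 with a tumor left out (0.00475 without control 1); HoxD coverage was -0.119 to 0.548. Past the group-13 end of HoxB the difference was -0.350 to 1.06 with a tumor left out, and of HoxD -0.132 to 0.375 (-0.00675 without test 1). Past the group-1 end of HoxB it was 0 with intervals at least 1 kb wide, -0.560 with joined intervals, -0.507 in a flank of 100 kb and -0.313 to -0.194 with a tumor left out. Past the group-13 end of HoxC it was 0 with 1 kb intervals or the 100 kb flank. Past its group-1 end it was -0.0413 with equal numbers of intervals, -0.0335 with 1 kb intervals, -0.0213 with joined intervals and 0 in the 100 kb flank. Past the group-1 end of HoxD it was 0.250 with 1 kb intervals and 0.0875 in the 100 kb flank. Of the named promoters, the window coverage difference reversed at Hoxd3 and Hoxd4 (-5.77 to 26.5 with a tumor left out), Hoxa3 (-53.1 to 11.9), Hoxa5 (-3.95 to 17.0) and Hoxa7 (-4.62 to 5.27). The cause of these changes was not tested. Depth is unknown, and a weakly marked region can fall below the peak caller's threshold, so 0% means no interval, not no acetylation.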
